A study of Homo sapiens with 6 samples.

Results

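The 8 p24 cargo receptor genes TMED1, TMED2, TMED3, TMED4, TMED5, TMED7, TMED9 and TMED10 were examined together with TICAM2 and with TMED7-TICAM2, a readthrough gene that joins TMED7 to TICAM2. These 10 genes were taken by name from a table of 24154 genes, and all 10 passed the filter on low counts. They were proposed with the counts of the comparison known: TICAM2 for its low counts after the CPT2 siRNA, TMED7-TICAM2 for its opposite difference and TMED7 for its lower level. The differences of those 3 genes between the groups are therefore a description and support nothing. Poly(A) RNA was sequenced from cells labelled HCT116, a colorectal carcinoma line, 48 h after a negative control siRNA (NC, 3 libraries) or an siRNA against CPT2 (3 libraries). CPT2 encodes carnitine palmitoyltransferase 2, a mitochondrial enzyme of long-chain fatty acid oxidation. No further genotype, drug or allele is given for either group, and the labels do not say whether replicates were separate cultures. P-values thus measure only the spread between these libraries, which may be technical.

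The p24 proteins are small single-pass membrane proteins that cycle between the endoplasmic reticulum and the Golgi apparatus. They assemble into complexes drawn from the alpha (TMED4, TMED9), beta (TMED2), gamma (TMED1, TMED3, TMED5, TMED7) and delta (TMED10) subfamilies, bind COPII and COPI coats through short cytoplasmic tails, and carry cargo such as GPI-anchored proteins out of the endoplasmic reticulum. TICAM2, also called TRAM, is the adaptor that links Toll-like receptor 4 to TICAM1 (TRIF) on endosomes. The readthrough gene encodes a longer form of TICAM2, known as TAG, that starts with most of TMED7.

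The libraries differed in ways that touch these genes. Total counts were 28353790 to 29449380 per library, so that 3 counts corresponded to 0.102 to 0.106 CPM (counts scaled to the library's total). Mitochondrially encoded transcripts took at most 10.8% of counts in the NC libraries, 16.99% in CPT2 siRNA replicate 1, 15.6% in replicate 2 and 8.99% in replicate 3. CPT2 siRNA replicate 1 stood apart on the first principal component (score 61.8, against -35.6 to 12.5 in the others), which held 75.2% of the variance. In that library the genes in the lowest decile of transcript GC content had a median of -1.04 log2 CPM against the mean of the NC libraries, and those in the highest decile 0.80. CPT2 had 709, 881 and 911 counts in the NC libraries and 492, 597 and 553 after its siRNA. Its log2 fold change was -0.44 (SE 0.17) and missed the threshold (edgeR adjusted p = 0.338). With GC and length offsets, fitted per library, it was 0.018 when these came from the longest CPT2 transcript (4539 bases, 38.5% GC) and -0.49 when they came from the transcript with the longest coding sequence (2739 bases, 52.1% GC). The markers went against the label in part. KRT8 (503 to 667 FPKM) and KRT18 (392 to 651) were high, whereas EPCAM was at 1.60 to 2.36 FPKM and KRT19, CDH1, CDH17 and VIL1 were under 1 FPKM in all 6 libraries. Of the 6 leukocyte and monocyte, 6 fibroblast and 4 endothelial markers, only CD68, COL1A1 and CDH5 exceeded 1 FPKM, and LYZ and LUM were at 0 in all libraries. The summed leukocyte and monocyte markers were at 11.2 to 12.2 FPKM in NC and 13.6 to 16.2 after the CPT2 siRNA, and the fibroblast markers at 11.7 to 14.1 and 12.9 to 17.7. The endothelial markers summed to 22.2 to 27.9 FPKM in NC and 12.5 to 20.5 after the CPT2 siRNA. The part of these markers in the results was not tested.

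The 3 genes of the locus lie on the minus strand of chromosome 5 (GRCh38), and the readthrough is made of exons that the others also use. TMED7 (ENSG00000134970) spans chr5:115613508-115632992, TICAM2 (ENSG00000243414) chr5:115578650-115602479 and TMED7-TICAM2 (ENSG00000251201) chr5:115578642-115626161. In the GENCODE 29 transcripts, the readthrough form with the longest coding sequence leaves the last TMED7 exon at position 115616318, skips an intron of 35120 bases and enters the second TICAM2 exon at position 115581197. The sequences around that junction are shown because reads that cross a readthrough junction can tell the readthrough from its neighbours. The 127 exonic bases held by no other gene of the locus directly adjoin annotated TMED7 and TICAM2 exons. Reads in those bases do not by themselves show a joined transcript. Each is printed 5′ to 3′ on the minus strand, with capitals marking the bases held by that readthrough form. The small letters of TICAM2 are held by the other annotated readthrough transcripts, which enter at position 115581315. All the printed bases are coding in the transcript named.
TMED7 (chr5:115616288-115616347): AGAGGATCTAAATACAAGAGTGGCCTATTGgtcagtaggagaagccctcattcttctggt
TMED7-TICAM2 (chr5:115616318-115616347 joined to chr5:115581168-115581197): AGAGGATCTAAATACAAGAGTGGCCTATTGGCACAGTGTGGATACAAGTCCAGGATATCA
TICAM2 (chr5:115581168-115581227): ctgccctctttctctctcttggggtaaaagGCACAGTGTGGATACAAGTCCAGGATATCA

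The junction keeps the reading frame. TMED7 has 224 codons, TICAM2 has 235 and the readthrough form 404. The readthrough keeps 566 coding bases of TMED7 and drops the last 106, which include those for the cytoplasmic tail. It then keeps 646 coding bases of TICAM2 and leaves out 59. The other 2 annotated readthrough transcripts enter at position 115581315, the acceptor that TICAM2 itself uses. TMED7 and TMED7-TICAM2 share 935 exonic bases, TICAM2 and TMED7-TICAM2 share 2666, and TMED7 and TICAM2 share none. TMED7 therefore has 2959 exonic bases (76.0% of its own) that belong to no other gene of the locus, TICAM2 has 578 (17.8%) and the readthrough 127 (3.41%). RefSeq (GRCh38.p14) gives TMED7 and the readthrough an identical window around their start, chr5:115625987-115626286, with 66.0% GC. TICAM2 starts from a window of its own at chr5:115602430-115602729, with 53.7% GC.

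**Figure D1:**
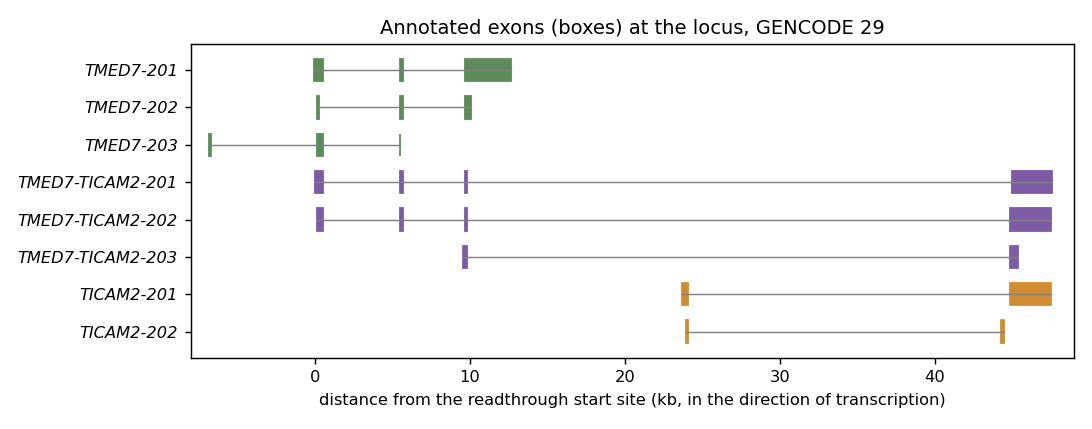
Annotated exons of TMED7, TMED7-TICAM2 and TICAM2 (boxes, GENCODE 29) against the distance in kb from the readthrough start site, in the direction of transcription. The readthrough shares 935 exonic bases with TMED7 and 2666 with TICAM2 and has 127 held by neither.

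TICAM2 was nearly empty in every library given the CPT2 siRNA. In order of replicate, the NC libraries held 126, 82 and 156 TICAM2 counts and the siRNA libraries 6, 9 and 6. Every siRNA library was far below every NC library. The level was 3.94 ± 1.18 CPM in NC and 0.255 ± 0.0596 CPM after the CPT2 siRNA (SD, n = 3 each), with a log2 fold change of -3.93 (SE 0.38). TICAM2 was 1 of the 2 genes called by edgeR at an adjusted p under 0.05 among 15302 tested (0.0131% of all genes, and 0.00654% when counting only genes lower after the siRNA; edgeR adjusted p = 0.0237), which is how the locus came to be singled out. The call was lost without NC replicate 1 (edgeR, adjusted p = 0.172), without NC replicate 3 (0.149), without CPT2 siRNA replicate 3 (0.223) and in limma-voom (0.107). It was also lost in limma-trend on log2(FPKM + 1) (limma adjusted p = 0.351) and at a threshold of 0.01. With the stricter filter neither TICAM2 nor the readthrough was tested. In bulk RNA, fewer cells with a transcript and less of it per cell cannot be told apart.

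TMED7-TICAM2 had the opposite pattern. The NC libraries held 0, 89 and 0 counts of it and the siRNA libraries 93, 153 and 156, again by replicate number. The siRNA libraries were all above the NC libraries, but NC replicate 2, with 89 counts, nearly reached CPT2 siRNA replicate 1, with 93. A count of 0 allows up to 0.103 CPM in NC replicate 1 and 0.102 in NC replicate 3, on total counts without TMM. The siRNA libraries held 3.67, 5.46 and 5.35 CPM, with TMM. The fitted log2 fold change of 2.32 (SE 1.32) rests on those zeros and on the value edgeR puts in their place, and is no measured size. Without NC replicate 2 both remaining NC libraries were at 0, and the gene then passed (edgeR, adjusted p = 0.0131). TICAM2 passed the low-count filter through the NC libraries and the readthrough mainly through the siRNA libraries. In the authors' deposited table TICAM2 was called down (log2 fold change -3.95, unadjusted p = 2.80e-16), as were 1.38% of the genes with a p-value there (4.15% were called up or down), while TMED7 (-0.90) and the readthrough (2.32) were called normal.

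Added together, TICAM2 and the readthrough no longer separated the groups. The summed counts of the NC libraries were 126, 171 and 156, and those of the siRNA libraries 99, 162 and 162. The CPM of the groups overlapped, from 4.20 to 5.54 in NC and from 3.91 to 5.78 after the CPT2 siRNA. With the pair replaced by its sum, a fold change of 0.05 on the log2 scale was fitted (SE 0.24, 95% interval -0.49 to 0.59), whose sign changed with the scaling and with the library left out. What differed was how the sum was divided. TICAM2 took 100%, 48.0% and 100% of it in NC replicates 1 to 3. It took 6.06%, 5.56% and 3.704% in CPT2 siRNA replicates 1 to 3, where the exact (Clopper-Pearson) 95% intervals reached at most 12.7%. In NC replicate 2 the interval was 40.3% to 55.7%, so this NC library lay between the other NC libraries and the siRNA libraries. These intervals cover counting error only. With 82.2% of TICAM2's exonic bases shared with the readthrough, the files do not show which gene a shared read came from, and whether the division follows the transcripts or the counting was not tested.

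**Figure D2:**
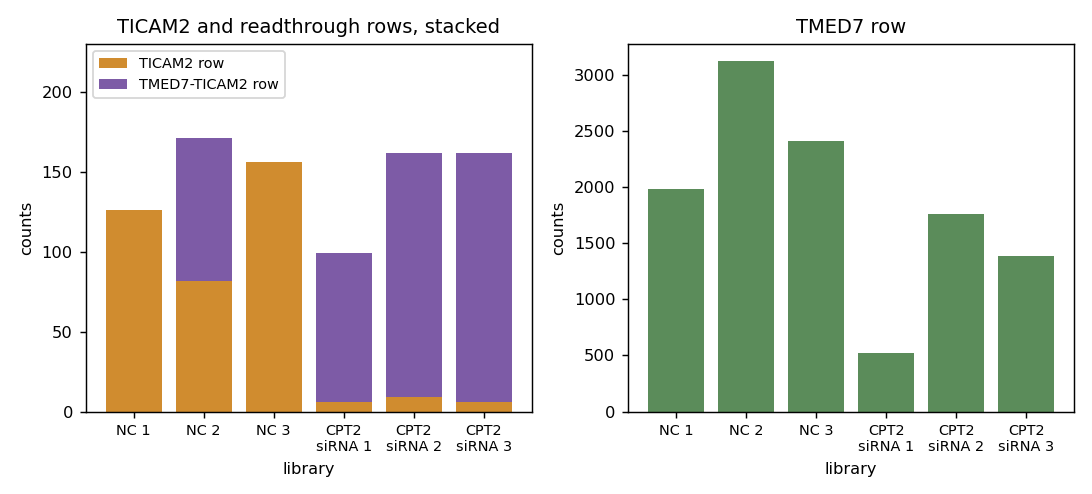
Deposited counts per library. On the left TICAM2 and TMED7-TICAM2 are stacked, with totals between 99 and 171 in all 6 libraries and TICAM2 at 6, 9 and 6 after the CPT2 siRNA. On the right TMED7 alone runs from 1982 to 3118 in NC and from 526 to 1761 after the CPT2 siRNA.

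TMED7, a gamma-subfamily p24 gene, was by far the most counted gene of the locus. It had 1982, 3118 and 2407 counts with the NC siRNA and 526, 1761 and 1390 with the CPT2 siRNA. In CPM these were 66.0, 101.0 and 76.8 against 20.8, 62.8 and 47.6. All siRNA libraries were below all NC libraries, with a narrow gap between CPT2 siRNA replicate 2 and NC replicate 1, and CPT2 siRNA replicate 1 was much the lowest. The fitted difference was -0.89 on the log2 scale (SE 0.36, 95% interval -1.70 to -0.09) and missed the threshold (edgeR adjusted p = 0.338). Without CPT2 siRNA replicate 1 it was -0.57, and without replicate 2 it was -1.26. With the replicate number as a block, although the numbers were not taken as pairs, TMED7 passed (-1.01, edgeR adjusted p = 0.0479). Of the counts of the 3 genes, TMED7 held 93.9% to 94.8% in NC and 84.2%, 91.6% and 89.6% in CPT2 siRNA replicates 1 to 3. The readthrough held 0%, 2.71% and 0% in NC, and 14.9%, 7.96% and 10.1% after the CPT2 siRNA.

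Adding the readthrough to TMED7 changed little, because the readthrough is small beside it. TMED7 with the readthrough had 66.0, 103.9 and 76.8 CPM in NC and 24.4, 68.3 and 53.0 CPM after the CPT2 siRNA. CPT2 siRNA replicate 2 then lay above NC replicate 1, so that the groups overlapped. Its fitted log2 difference was -0.76 (SE 0.34, 95% interval -1.53 to 0.01, edgeR adjusted p = 0.338). All 3 genes together had 70.2, 106.6 and 81.8 CPM in NC and 24.7, 68.6 and 53.2 CPM after the CPT2 siRNA, again without overlap. Their fitted log2 difference was -0.82 (SE 0.33, 95% interval -1.58 to -0.06, edgeR adjusted p = 0.338). Neither sum passed over all genes.

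Per transcript length, the p24 genes covered a wide range of levels and TMED7 was among the lower ones. The order by the authors' FPKM in NC was TMED9 (120.0 ± 13.5, SD, n = 3), TMED2 (92.6 ± 6.76), TMED3 (71.3 ± 5.65), TMED4 (61.5 ± 5.07), TMED10 (38.8 ± 1.54), TMED7 (21.4 ± 5.06), TMED1 (15.7 ± 2.18) and TMED5 (9.64 ± 2.28). TMED3 and TMED4 overlapped, as did TMED7 and TMED1, and all other neighbours in this order were apart in the NC libraries. TICAM2 was at 1.27 ± 0.386 FPKM in NC and 0.0706 ± 0.0234 after the CPT2 siRNA. The readthrough was at 0.278 ± 0.481 and 1.27 ± 0.357 FPKM. Within the p24 genes, TMED7 ranked 6 in every NC library and in CPT2 siRNA replicate 2, and 7, below TMED1, in CPT2 siRNA replicates 1 and 3. It supplied 4.97 ± 1.19% of the summed p24 FPKM in NC and 2.73 ± 1.48% after the CPT2 siRNA, and these shares overlapped. The summed FPKM of the 8 p24 genes was 430.9 ± 9.95 in NC and 392.4 ± 52.3 after the CPT2 siRNA, also overlapping.

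**Figure D3:**
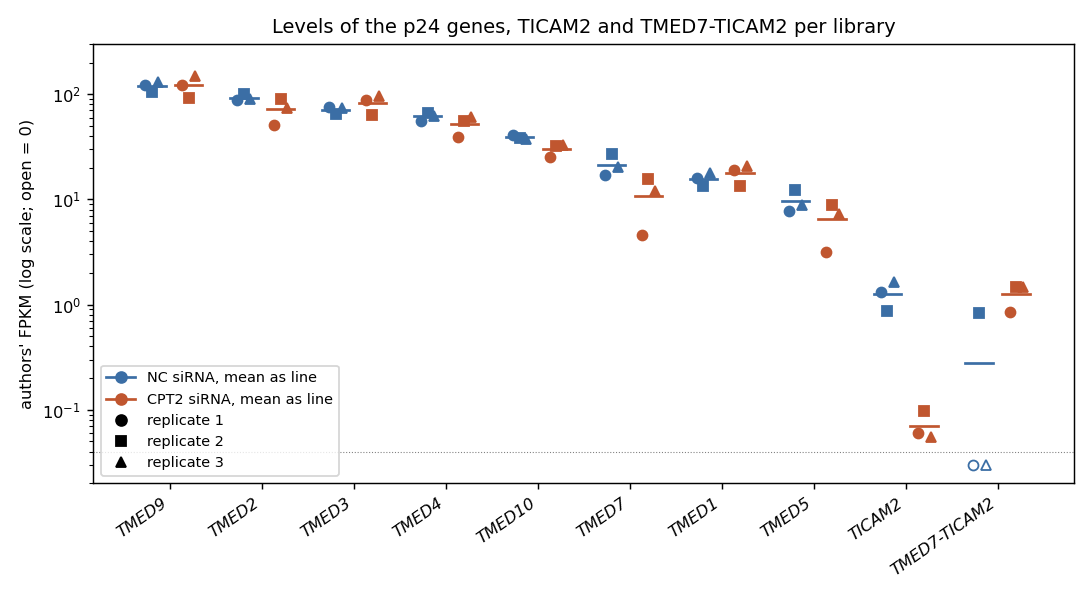
The authors' FPKM (log axis) of the 8 p24 genes, TICAM2 and TMED7-TICAM2 in each library, NC and CPT2 siRNA. TMED9 is highest in every library, and all p24 genes lie above TICAM2 and the readthrough, whose open points are listed at 0.

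None of the 8 p24 genes passed over all genes between the groups (edgeR, adjusted p from 0.338 to 0.673), and 1 of them, TMED7, had an unadjusted p under 0.05, beside 14.5% of all genes. For the 7 other than TMED7, DESeq2 and limma-voom also called 0. In 2 of the 8 (TMED7 and TMED10) all siRNA libraries lay below all NC libraries, as they did in 12.2% of all genes tested, and in the other 6 the groups overlapped. The log2 fold change was below 0 in 5 and above 0 in 3, with a median of -0.20 beside 0.0083 over all genes. With FPKM in place of counts the split was 6 and 2.

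By subfamily, the values were as follows. In the delta subfamily, TMED10, which pairs with TMED2 in p24 complexes, had 173.0, 157.8 and 155.0 CPM in NC and 125.5, 141.4 and 142.9 CPM after the CPT2 siRNA. Its siRNA libraries were all lower by a small margin, with a log2 fold change of -0.25 (SE 0.13). In the beta subfamily, TMED2 had 232.9, 255.5 and 228.0 CPM in NC and 157.5, 243.6 and 199.4 CPM after the CPT2 siRNA. CPT2 siRNA replicate 2 lay inside the NC range, and the log2 fold change was -0.25 (SE 0.17).

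In the alpha subfamily, whose proteins bind COPI through their tails, TMED9 had 187.6, 154.9 and 194.5 CPM in NC and 220.2, 143.6 and 229.6 CPM after the CPT2 siRNA. CPT2 siRNA replicates 1 and 3 were the highest libraries and replicate 2 the lowest, and the log2 fold change was 0.14 (SE 0.20). TMED4 had 128.2, 143.5 and 137.1 CPM in NC and 103.2, 126.2 and 138.2 CPM after the CPT2 siRNA. Its log2 fold change was -0.15 (SE 0.15), and CPT2 siRNA replicate 3 lay inside the NC range.

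In the gamma subfamily, TMED7's relatives did not share its separation. TMED5 had 47.6, 64.9 and 51.4 CPM in NC and 21.0, 54.8 and 45.8 CPM after the CPT2 siRNA, with a log2 fold change of -0.43 (SE 0.32). CPT2 siRNA replicate 1 was much the lowest library, as in TMED7, and replicate 2 lay inside the NC range. TMED3 had 121.3, 104.7 and 117.1 CPM in NC and 163.6, 107.7 and 153.1 CPM after the CPT2 siRNA, with a log2 fold change of 0.31 (SE 0.18). TMED1 had 22.2, 17.8 and 23.5 CPM in NC and 30.5, 18.6 and 29.3 CPM after the CPT2 siRNA, with a log2 fold change of 0.31 (SE 0.23). In both, CPT2 siRNA replicates 1 and 3 were above every NC library and replicate 2 was not. TMED1 shares 776 of its 1513 exonic bases with DNM2 on the opposite strand and TMED5 shares 675 of 9423 with CCDC18, and their counts are uncertain, since the treatment of strand in the counting was not given in the sources used here. The summed FPKM of the gamma genes without TMED7 was 96.6 ± 5.51 in NC and 106.7 ± 19.5 after the CPT2 siRNA, with overlap.

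**Figure D4:**
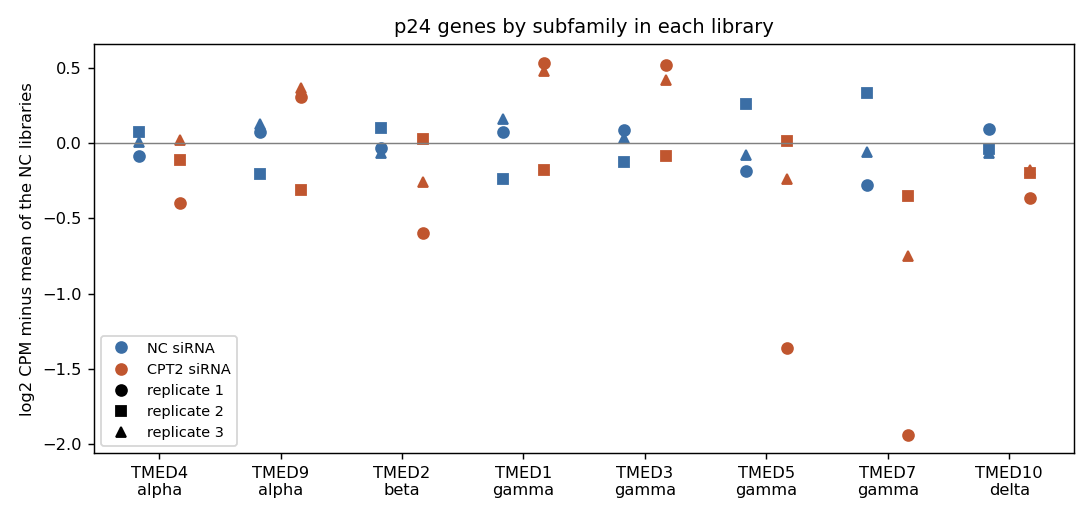
Log2 CPM of each p24 gene in each library against the mean of the NC libraries, grouped by subfamily. TMED7 has its siRNA libraries at -1.94, -0.35 and -0.75, and in TMED10 too they all lie below the NC libraries.

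Set against its family, TMED7 was lower after the CPT2 siRNA, but the libraries overlapped. Its log2 fold change was 0.74 below the median of the other 7 p24 genes (a difference of -0.74). By library, TMED7 minus the median of the others was -0.35, 0.37 and -0.07 with the NC siRNA and -1.57, -0.24 and -0.77 with the CPT2 siRNA. CPT2 siRNA replicate 2 lay inside the NC range. Without CPT2 siRNA replicate 1 the difference was -0.51, and over all 18 alternatives it ran from -1.08 to -0.33. No test was made of this difference, because the genes were chosen with it known.

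The GC content of the p24 transcripts moved with these differences. Measured in the transcript with the longest coding sequence, it was 37.4% in TMED5, 37.6% in TMED7, 40.3% in TMED2, 40.4% in TMED10, 47.9% in TMED4, 57.0% in TMED9, 58.4% in TMED3 and 60.9% in TMED1. By this measure, the 5 genes with the lowest GC were those with a log2 fold change below 0, and the 3 with the highest GC those above 0. With offsets taken from that transcript's GC content and length, an alternative added after the values were seen, the 7 others lay between -0.19 and 0.19 and TMED7 at -0.54 (SE 0.15, edgeR adjusted p = 0.391). The signs then differed from those given above in TMED1, TMED2, TMED3, TMED5, TMED9 and TMED10. With GC offsets from the longest transcript of each gene, TMED7 was at -0.59, and at -0.41 without CPT2 siRNA replicate 1 as well. TMED3 was then at 0.72, because its longest annotated transcript has 16555 bases and 44.9% GC. By the longest transcript TMED3 thus had a lower GC content than TMED4 (47.9%), and the split by sign did not hold. TICAM2 and the readthrough, at 42.4% and 43.0% GC, kept log2 fold changes of -3.69 and 2.67 with the first of these offsets. TMED5, with nearly the GC content of TMED7, was at -0.43 as counted and at 0.02 with the first of these offsets.

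**Figure D5:**
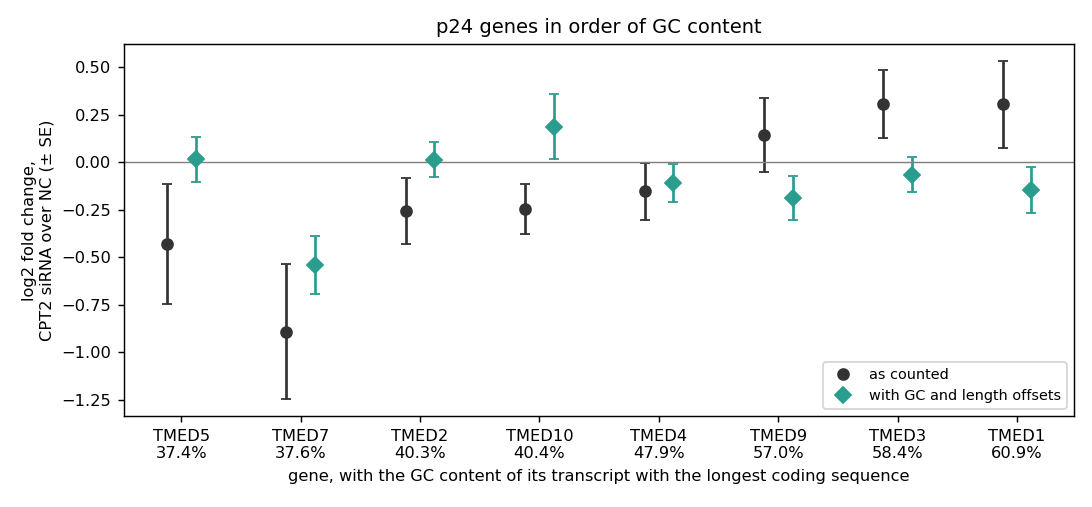
Log2 fold change (± SE) of the p24 genes in order of the GC content of the transcript with the longest coding sequence, as counted and with GC and length offsets from that transcript. As counted the values run with the GC content of that transcript, from -0.89 in TMED7 to 0.31 in TMED3 and TMED1. With the offsets 7 genes lie within -0.19 to 0.19 and TMED7 at -0.54.

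The machinery that p24 proteins work with was described from lists chosen with earlier results of these data known. Of 69 genes in 5 lists, 67 could be tested and edgeR called 0, as did DESeq2 and limma-voom. Of the 67, 11 had an unadjusted p under 0.05, beside 14.5% of all genes. The values of named genes are thus given without a direction. The GC and length offsets given for these lists came from each gene's longest transcript, unless stated otherwise.

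Of the 14 COPI genes, which form the coat that returns p24 proteins to the endoplasmic reticulum, 6 had a log2 fold change above 0 and 8 below, with a median of -0.04. The smallest p-values were those of the coat subunits COPB1 (-0.67, SE 0.25) and COPA (-0.33, SE 0.14) and of ARFGAP3 (-0.47, SE 0.20), a GTPase-activating protein of the ARF cycle. ARF1, the GTPase that recruits the coat and the gene of the list with the highest FPKM, was at 0.02 (SE 0.13). With GC and length offsets COPB1 was at -0.42, COPA at -0.10, ARFGAP3 at -0.35 and ARF1 at -0.25. Of the 16 COPII genes, which form the coat of vesicles leaving the endoplasmic reticulum, 3 were above 0 and 13 below, with a median of -0.27. All siRNA libraries were below all NC libraries in 6 of the 16, beside 12.2% of all genes. This was so in 5 of the 14 COPI genes as well. It held in 3 of the 14 other cargo and retrieval receptors, 2 of the 14 TLR4 genes tested and 0 of the 9 GPI anchor genes. The inner coat genes SEC23A (-0.88, SE 0.36) and SEC24D (-0.83, SE 0.37) had 82.3 ± 14.6 and 86.5 ± 18.6 CPM in NC and 44.6 ± 21.5 and 48.8 ± 24.2 CPM after the CPT2 siRNA. The outer coat gene SEC13 was at 0.29 (SE 0.13). With GC and length offsets the median of the COPII list was -0.09, with SEC23A at -0.55, SEC24D at -0.67 and SEC13 at 0.21. With offsets from the transcript with the longest coding sequence SEC23A was at -0.58, SEC24D at -0.62 and SEC13 at 0.06.

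Among 14 other cargo and retrieval receptors, 7 were above 0 and 7 below. LMAN1 and MCFD2, which together form the receptor for coagulation factors V and VIII, had log2 fold changes of -0.82 (SE 0.28) and -0.54 (SE 0.21). LMAN2, a lectin of the same family as LMAN1, was at 0.65 (SE 0.21), and the abundant ERGIC1 at 0.03 (SE 0.12). The offsets gave -0.46 for LMAN1, -0.30 for MCFD2, 0.24 for LMAN2 and 0.12 for ERGIC1. Those from the transcript with the longest coding sequence gave -0.43, -0.25, 0.28 and -0.07 in the same order. For the GPI anchor genes, which attach and remodel the anchor of a main class of p24 cargo, 6 of 9 were above 0, with a median of 0.26. The smallest p-values were those of the transamidase subunits PIGT, GPAA1 and PIGU, at 0.38 (SE 0.15), 0.54 (SE 0.24) and 0.48 (SE 0.23). The transamidase subunits PIGK and PIGS, also in the list, were at -0.46 (SE 0.23) and 0.03 (SE 0.13). With GC and length offsets the median of this list was 0.03, with PIGT at 0.57, GPAA1 at -0.00071 and PIGU at 0.31. PIGK was then at 0.014 and PIGS at 0.034. With offsets from the transcript with the longest coding sequence PIGT was at 0.10, GPAA1 at 0.03 and PIGU at 0.39. PIGK was at 0.07 and PIGS at -0.11 with those.

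The TLR4 list bears on TICAM2, and 14 of its 16 genes could be tested. The co-receptor genes LY96 and CD14 did not pass the low-count filter. TLR4 itself had 7.004 ± 1.47 CPM in NC and 3.98 ± 1.17 CPM after the CPT2 siRNA, with a log2 fold change of -0.81 (SE 0.27) that was -0.33 with GC and length offsets. TICAM1, the adaptor that TICAM2 recruits, had 33.2 ± 2.34 and 41.9 ± 8.54 CPM, and its log2 fold change was 0.34 (SE 0.19). IRF3, the transcription factor of this branch, was at 0.64 (SE 0.24), the kinase gene IKBKE at 0.38 (SE 0.20) and IRAK1, a kinase of the MYD88 branch, at 0.13 (SE 0.17). With the offsets TICAM1 was at -0.085 and IRAK1 at -0.23, both with the sign changed, IRF3 at 0.32 and IKBKE at 0.11. With offsets from the transcript with the longest coding sequence these 4 genes were at -0.058, -0.20, 0.18 and 0.16. In total 6 of the 14 were above 0 and 8 below, with a median of -0.10.

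Other readthrough genes also had empty libraries beside well-filled ones. The table held 101 genes whose name joins the names of 2 other genes in it, and 46 of them, TMED7-TICAM2 included, reached 50 counts in some library. Of these 46, 15 (32.6%) had 0 counts in another library, beside 62 of all 13414 genes that reached 50 counts (0.462%). The 13414 include the 46, and the comparison was not matched for count level. The zeros did not follow the groups in all of them. More NC than siRNA libraries were at 0 in 11, fewer in 3 and equally many in 1. BIVM-ERCC5 had 2071, 2253 and 2 counts with the NC siRNA and 1326, 0 and 1789 with the CPT2 siRNA. PALM2-AKAP2 had 1160, 0 and 1253 counts in NC and 0, 0 and 903 after the CPT2 siRNA. ISY1-RAB43 had 0, 0 and 0 in NC and 273, 0 and 259 after the CPT2 siRNA. These 3 examples were chosen after their values were seen, and they show that replicates of the same group could differ between 0 and 1789 counts. BIVM-ERCC5 and PALM2-AKAP2 were among the 3 genes with fewer NC than siRNA libraries at 0.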

How the data were processed

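The table that the authors deposited gives, for each gene in each library, a value that the file headers name count and one that they name FPKM. The counts were read as whole numbers and assumed to be raw, with no normalization. Per the file headers, a p-value, a log2 fold change and a call from DESeq2 are deposited there too. The submitters' processing notes list DESeq2, edgeR, StringTie, Bowtie2, TopHat2 and HISAT2 and the build GRCh38, without roles. Rules for reads shared by overlapping genes were not given in the sources used here. After 17 stray lines were left out, 24154 genes remained, of which 19974 had Ensembl IDs, all found in GENCODE 29, and 4180 were new loci with 5.32% to 7.18% of counts.

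All 6 libraries were fitted with edgeR 4.0.16 in R 4.3.3 (TMM, filterByExpr, robust quasi-likelihood F-test; 15302 genes tested), with Benjamini-Hochberg adjustment over all genes and a threshold of 0.05. Fold changes are CPT2 siRNA over NC. CPM used TMM-scaled library sizes, except for the limits from 3 counts, which used total counts. Sums replaced the genes concerned before the fit, and the alternatives are given in the closing section (DESeq2 1.42.0, limma 3.58.1 among them). For FPKM, limma-trend was run on log2(FPKM + 1). GC and length offsets were loess fits, made per library, against the GC content and length of each gene's longest transcript. Likeness was the root mean square difference of log2 CPM, centred per gene, over the 6 libraries, among genes with a mean of at least 10 CPM for TMED7 and 1 CPM for TICAM2. Shares have exact binomial 95% intervals from scipy 1.17.1, and the limit for a count of 0 is 3 counts. The main edgeR fit and the summing of genes were checked on simulated counts, without GC shifts, an outlying library or a block. The alternative fits were not checked in this way.

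The members, lists and tests were chosen with earlier results of these data known. The named genes are the members, TMED6, TMED8, CPT2, genes within 500 kb of the readthrough gene, the 5 genes nearest TMED7 and TICAM2, and from each list any called gene, or else the 3 with the smallest p and that with the highest FPKM. TICAM1, PIGK, PIGS and the other readthrough genes were named after their values were seen. GC offsets from the transcript with the longest coding sequence, and GC offsets without CPT2 siRNA replicate 1, were added after seeing the data.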

Additional observations from a re-analysis of the deposited data

How the results depend on the processing

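TMED7, TICAM2 and TMED4 stayed below 0 in every alternative run for them, and the difference of TMED7 from the median of the other p24 genes stayed between -1.08 and -0.33. Genes called over the whole table, 2 as reported, were 20 by DESeq2, 1 by limma-voom, 1 with a stricter filter, 1 at an adjusted p of 0.01, 4 with GC and length offsets and CPT2 siRNA replicate 1 left out, 0 with log2(FPKM + 1) in limma-trend (2055 at an unadjusted p under 0.05), and 1 to 5 with a library left out. Replicate numbers were tried as a block. Deviations of same-numbered libraries correlated at 0.475, 0.611 and -0.024 for numbers 1, 2 and 3 (11404 genes), so the numbers were not taken as pairs, and NC replicate 3 correlated best with CPT2 siRNA replicate 1 (0.231). With the block edgeR called 633 of the 15302 genes tested, and 396 with GC and length offsets as well. It called 5 of the 67 trafficking and TLR4 genes in both of these fits, and 1 of the 7 p24 genes other than TMED7, TMED3, in the second. TMED3 was at 0.66 there, with offsets from its longest transcript. With offsets from the transcript with the longest coding sequence, and no block, it was at -0.065 (edgeR adjusted p = 0.782). Both block fits also called TMED7 (-1.01, edgeR adjusted p = 0.0479, and -0.61, 0.0198) and TICAM2 (-3.89, 0.00238, and -3.68, 0.00387). With the block, TMED7 and the readthrough summed gave -0.85 (edgeR adjusted p = 0.0478) and all 3 genes -0.91 (0.0480), and with the offsets as well -0.45 (0.0332) and -0.52 (0.0221).

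The sum of TICAM2 and the readthrough changed sign with library size alone (-0.077), which moved the median of all genes to -0.13, with FPKM (-0.13) and with libraries left out (-0.058 to 0.20). It was below 0 without NC replicate 1 (-0.049), CPT2 siRNA replicate 2 (-0.058) or replicate 3 (-0.017). With a library left out, TMED7 with the readthrough ran from -1.10 to -0.45 and all 3 genes from -1.16 to -0.51. TICAM2 differed by -1.07 on the log2(FPKM + 1) scale (limma adjusted p = 0.351), where the added 1 is about as large as its NC level, and by -4.17 as the log2 ratio of the mean FPKM. With GC and length offsets alone, with these and the block, and with these and CPT2 siRNA replicate 1 left out, TMED1 was at -0.19, -0.20 and -0.17, and TMED9 at -0.24, -0.25 and -0.22. TMED10 was at 0.13 with the offsets and 0.12 with the block as well, and TMED5 at 0.10 with the offsets and CPT2 siRNA replicate 1 left out. TMED9 was at -0.0070 with FPKM. With offsets from the transcript with the longest coding sequence, TMED1 was at -0.15, TMED2 at 0.014, TMED3 at -0.065, TMED5 at 0.015, TMED9 at -0.19 and TMED10 at 0.19. The cause of these changes was not tested. Depth limits TICAM2 after the CPT2 siRNA, where it rests on 6 to 9 counts a library.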

Other observations

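Genes near the locus were also described, since position was not used to choose the members. Within 500 kb of the readthrough gene the annotation and the table share 13 genes, the 3 of the locus included, and of the other 10, 7 could be tested and edgeR called none (0.0131% of all genes were called), with 1, FEM1C, at an unadjusted p under 0.05. FEM1C, an adaptor gene of a ubiquitin ligase that lies 33748 bases away, had 18.8, 23.5 and 18.2 CPM in NC and 10.03, 16.0 and 13.0 CPM after the CPT2 siRNA, a log2 fold change of -0.63 (SE 0.22) that was -0.18 with GC and length offsets. PGGT1B (-0.36, SE 0.28) and COMMD10 (-0.48, SE 0.34) also had all siRNA libraries below all NC libraries, as had 12.2% of all genes. With the offsets PGGT1B was at 0.18 and COMMD10 at -0.49. The groups overlapped in TRIM36 (-0.05), CCDC112 (-0.35), the autophagy gene ATG12 (-0.26) and AP3S1 (-0.15). The 3 not tested were CDO1 and LVRN, with 0 counts in all libraries, and ARL14EPL, with at most 15.

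The p24 relatives outside the 8 members were TMED8 and TMED6. TMED8 had 14.6, 13.4 and 12.2 CPM in NC and 6.12, 9.02 and 11.6 CPM after the CPT2 siRNA, without overlap, with a log2 fold change of -0.59 (SE 0.25) that missed the threshold (edgeR adjusted p = 0.338) and was -0.24 with GC and length offsets. TMED6 had 14 to 29 counts per library and a log2 fold change of 0.08 (SE 0.42).

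The genes whose profile over the 6 libraries was most like that of TMED7, among 9538, were CCP110 (root mean square difference 0.0427 log2 CPM), VGLL3 (0.0616), TCF12 (0.0635), SEC24D (0.0657) and PPIP5K2 (0.0691). CCP110 had 12.7, 20.3 and 15.7 CPM in NC and 4.23, 12.8 and 10.04 CPM after the CPT2 siRNA, with the same library highest and the same library lowest as in TMED7. Of the other p24 genes TMED5 came nearest, at rank 520 (0.254), and TMED1 farthest, at rank 7805. The genes nearest TICAM2, among 13591, were ZNF468 (0.634), ZC3H11A (0.973), CARF (1.02), RGPD3 (1.07) and B3GAT2 (1.09), all at a much larger distance. TMED7-TICAM2 was at rank 13587, a place set by the choice of both genes for their opposite differences. At such low counts these distances also depend on the small constant added to CPM before the logarithm.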
